A study of Mus musculus with 4 samples.

Results

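DNA repair and Fanconi anemia genes were examined in bone-marrow progenitors that lack Asxl1, a chromatin regulator often mutated in human myeloid malignancy. The 35 genes were listed by name, from the recombination, Fanconi, checkpoint, end-joining and single-strand repair machinery. All 35 had 1 locus each among the 17956 single loci of the deposited table, and all 35 were among the 13764 loci tested. KO denotes the 2 libraries labelled Asxl1-/- and WT the 2 wild-type libraries, all from Lin-Kit+ marrow cells of C57BL/6 mice, a fraction enriched in hematopoietic stem and progenitor cells by lack of mature lineage markers and presence of the receptor Kit. The series relates expression to the binding of ASXL1 and of cohesin, the ring that holds sister chromatids together. The labels do not give how the Asxl1 allele was made, the age of the mice or whether replicates were separate animals, so p-values measure the spread between these libraries.

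Broken and crosslinked DNA is handled by linked pathways. ATM and ATR are kinases that sense damage and act through CHEK1 and CHEK2. BRCA1, PALB2 and BRCA2 act in homologous recombination at resected ends, the Fanconi core complex tags the FANCD2 and FANCI pair at interstrand crosslinks, and the Ku proteins with the kinase encoded by Prkdc and with ligase IV rejoin ends directly. Dividing blood progenitors depend on these pathways, and inherited loss of Fanconi genes in people leads to marrow failure.

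Most of the repair genes did not pass the test in KO. Brca2 and the locus that holds Fanci rose, and Atm, Mdc1, Parp1 and Xrcc1 fell, each by less than 1.5-fold. These 6 were 17.1% of the 35 genes, against 20.9% of all tested loci past the same threshold, an adjusted p of 0.05 in limma, a linear model that pools the spread over loci. The 2 that rose stood against 11.9% of loci higher in KO and the 4 that fell against 8.97% lower. The share of 17.1% is near the background and is no result about the genes as a group. Their median log2 fold change of KO over WT was -0.01, with -0.01 over all tested loci, and the 35 values ran between -0.38 and 0.27.

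Upstream sequence is shown for the 2 genes that fell most, Atm and Parp1, for the gene that rose most, Brca2, and for Mdc1, which held the most matches to an E2F-type motif among the 6 genes. Each run is the 250 bases before the RefSeq start in GRCm38.p6, a later build than the mm9 of the deposited table, so its coordinates must not be mixed with those of the loci. Capitals mark TTCCCGC (a motif bound by E2F factors, which drive genes of the S phase), CCAAT or GGGCGG (a GC box) on either strand.
Atm: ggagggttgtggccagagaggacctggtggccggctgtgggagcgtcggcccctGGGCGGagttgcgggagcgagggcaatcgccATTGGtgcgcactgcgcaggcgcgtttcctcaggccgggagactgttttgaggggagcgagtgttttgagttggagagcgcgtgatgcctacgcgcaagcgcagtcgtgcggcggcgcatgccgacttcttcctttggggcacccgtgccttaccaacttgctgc
Parp1: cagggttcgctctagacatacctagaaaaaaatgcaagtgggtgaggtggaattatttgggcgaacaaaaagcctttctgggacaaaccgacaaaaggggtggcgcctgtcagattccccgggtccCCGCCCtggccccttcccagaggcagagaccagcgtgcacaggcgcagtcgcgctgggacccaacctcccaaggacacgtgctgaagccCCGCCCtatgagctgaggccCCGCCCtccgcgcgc
Mdc1: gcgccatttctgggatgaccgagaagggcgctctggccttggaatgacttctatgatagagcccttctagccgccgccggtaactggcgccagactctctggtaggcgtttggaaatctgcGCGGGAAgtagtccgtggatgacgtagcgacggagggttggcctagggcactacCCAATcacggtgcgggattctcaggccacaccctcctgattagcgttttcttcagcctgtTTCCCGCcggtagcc
Brca2: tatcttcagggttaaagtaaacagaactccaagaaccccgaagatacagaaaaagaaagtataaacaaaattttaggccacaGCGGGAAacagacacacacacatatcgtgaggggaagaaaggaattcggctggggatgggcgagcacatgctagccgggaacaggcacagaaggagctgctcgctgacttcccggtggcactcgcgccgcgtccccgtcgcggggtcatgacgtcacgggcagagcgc
They lie at chr9:53536672-53536921 on the minus strand (Atm) and, on the plus strand, at chr1:180568641-180568890 (Parp1), chr17:35841248-35841497 (Mdc1) and chr5:150522371-150522620 (Brca2). No printed motif overlapped another, and TTGGCGC, a second E2F-type sequence, was searched as well.

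RefSeq promoters matched 29 of the 35 genes, and Fancd2, Nbn, Prkdc, Rad50, Wrn and Xrcc2 had no entry. TTCCCGC lay in 8 of the 29, or 27.6%, against 3.82% of all 32851 promoters of the same length. The 8 were Bard1, Brca2, Chek2, Fancg, Fancm, Mdc1, Xrcc4 and Xrcc6, and they include 1 gene that rose and 1 that fell. TTGGCGC lay in 0 of the 29 and in 1.97% of all promoters. CCAAT lay in 16, or 55.2%, against 33.8%, and GGGCGG in 19, or 65.5%, against 32.7%. The shares are not of like sets: a repair gene counted if any of its promoters matched, whereas the background counts each promoter. That background also takes in genes that were not among the tested loci. Such matches describe the letters of these windows and locate no bound factor.

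Values are normalised read counts per locus, which are reads that the authors scaled by 1 factor per library. The libraries held 83586916 and 76688583 reads in KO and 46597871 and 49764454 in WT, and a single repair gene had between 462 and 27204 of them in a library. At 462 reads the counting error is 4.65%. Between libraries of a genotype the median coefficient of variation of the 35 genes was 4.02% in KO and 2.28% in WT. Asxl1 (chromosome 2, 153171874 to 153229743, mm9) had 146 and 135 in KO and 9742 and 9472 in WT, which matched the labels. Xist was high in replicate 1 of both genotypes (89290.1 in KO and 103006 in WT) and low in replicate 2 (147 in KO and 2123 in WT), so the libraries of a genotype were not repeats of 1 RNA sample, and values within each replicate pair are given for the genes that changed.

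Of the 35 loci, 8 also hold another gene, and their reads cannot be divided: Fanca with Zfp276, Fanci with Polg, Fancl with Vrk2, Atr with 1700065D16Rik, Trp53bp1 with Tubgcp4, Xrcc6 with Desi1, Msh6 with Fbxo11 and Rad54l with Lrrc41. The other 27 hold 1 named gene. Another 26 entries of the table join a repair locus to a neighbour, at 0.0127% to 0.0239% of the reads of the 35 loci, and were left out. The genes lie on 14 chromosomes, and the single one on the chromosome of Asxl1, Trp53bp1, is 32.1 Mb away.

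**Figure D1:**
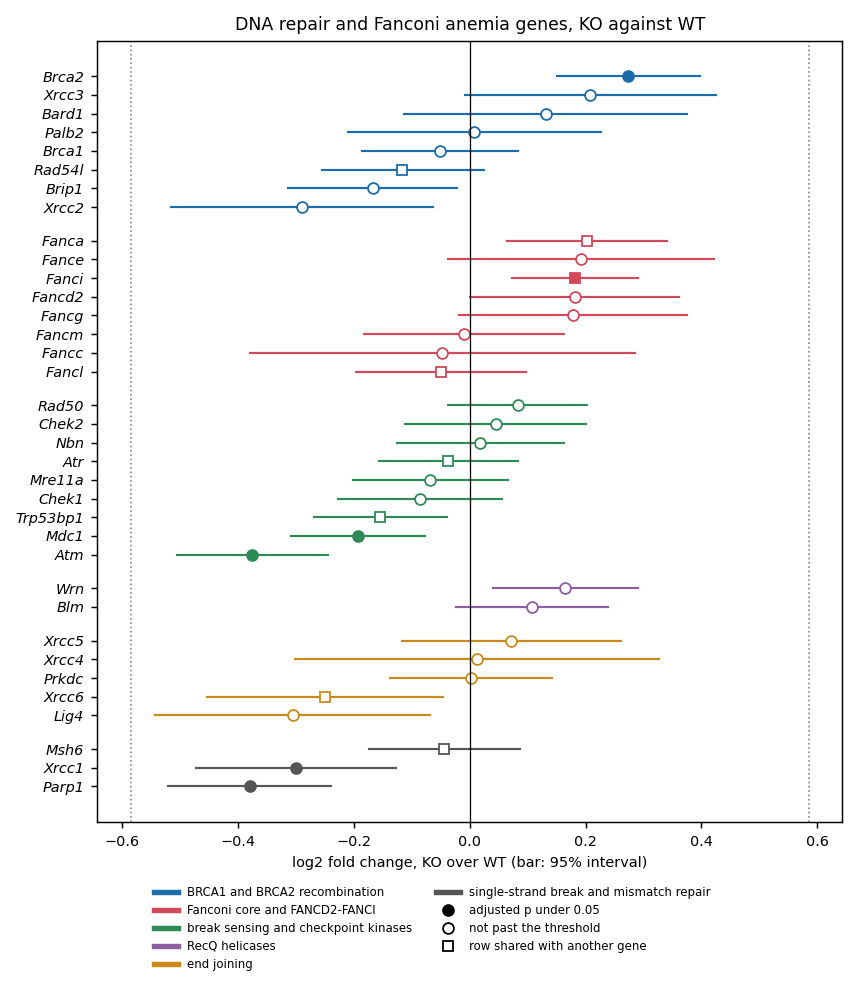
Log2 fold change of KO over WT for the 35 genes by role, with bars for the 95% interval of the limma fit; filled symbols passed the threshold, squares share their locus with another gene and dotted lines mark 1.5-fold. All 35 intervals lie inside 1.5-fold, with Brca2 highest at 0.27 and Parp1 lowest at -0.38.

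Among the homologous recombination genes Brca2 rose (chromosome 5, 151325197 to 151372324, mm9), whose protein is a central mediator of strand exchange. Brca2 had 6546 and 6393 normalised reads in the KO libraries and 5406 and 5294 in the WT libraries. Both KO libraries lay above both WT libraries. It rose by 0.27 ± 0.05 (log2, SE; limma adjusted p = 0.0172), to 121% of the WT mean, with 0.28 between the libraries numbered 1 and 0.27 between those numbered 2. Its partners were not called: Palb2, the bridge between the BRCA proteins, had 1982 ± 105 in KO and 1973 ± 170 in WT (SD, n = 2 each), and its log2 fold change of 0.01 had a 95% interval of -0.21 to 0.23. Brca1, the ubiquitin ligase that promotes resection, had 6295 ± 253 in KO and 6524 ± 138 in WT, at -0.05 (interval -0.19 to 0.08). Bard1, its ring-domain partner, had 3014 and 3229.7 in KO and 3124 and 2600.2 in WT, so the libraries of the genotypes overlapped (0.13, interval -0.11 to 0.38).

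Xrcc2, which acts in homologous recombination, had 1009 and 1121 in KO and 1295 and 1305 in WT. Those groups did not overlap, and the fold change of -0.29 ± 0.09 missed the threshold on the deposited values (limma adjusted p = 0.0742). Xrcc2 was called by limma with upper-quartile (adjusted p = 0.0436) and total-count scaling (adjusted p = 0.0407). Those scalings lower the median of all tested loci, to -0.06 and -0.07. Neither edgeR (adjusted p = 0.0777) nor DESeq2 (adjusted p = 0.0752) called Xrcc2. Brip1, a helicase bound by BRCA1, had 3532 and 3421 in KO and 3994 and 3815 in WT, at -0.17 ± 0.06 (limma adjusted p = 0.0963). The same 2 scalings called Brip1 as well (limma adjusted p = 0.0477 with upper-quartile and 0.04 with total-count scaling). Neither edgeR (adjusted p = 0.129) nor DESeq2 (adjusted p = 0.12) called Brip1. Xrcc3, also a homologous recombination gene, pointed the other way with 1289 and 1404 in KO and 1192 and 1138 in WT (0.21 ± 0.09, limma adjusted p = 0.144), and its locus overlaps that of Klc1 by 3583 bases, so how reads were divided there is uncertain. The locus with the most reads in this role, that of Rad54l, a motor protein of strand invasion, had 6697.0 and 7219 in KO and 7619 and 7447 in WT, at -0.12. In this role 1 of 8 genes passed the threshold by limma on the deposited values.

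The 8 Fanconi genes of the list had a median log2 fold change of 0.18, against -0.01 over all tested loci. Of these, 1 passed the threshold, or 12.5%, against 20.9% of all tested loci. The median was 0.04 over 15 Fanconi partners and crosslink nucleases of the pathway lists. Fanca, Fanci and Fancl share their loci with other genes. The locus of Fanci and Polg (chromosome 7, 86537223 to 86611159, mm9) had 11369.6 and 11319.7 in KO and 10064 and 9939.9 in WT. It rose by 0.18 ± 0.04 (limma adjusted p = 0.0373), to 113% of the WT mean, with 0.18 between the libraries numbered 1 and 0.19 between those numbered 2. Fanci encodes a partner of FANCD2, whereas Polg encodes the mitochondrial DNA polymerase, so the rise cannot be assigned to either gene. The locus of Fanca, a core subunit, had 8047 and 8611.5 in KO and 7093 and 7375 in WT, at 0.203 ± 0.06. It was just short of the threshold (limma adjusted p = 0.0533), and was called by edgeR (adjusted p = 0.0434) and DESeq2 (adjusted p = 0.0185). It was not called by limma with upper-quartile (adjusted p = 0.0976) or total-count scaling (adjusted p = 0.124).

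Fancd2, which encodes the partner of FANCI that is tagged at crosslinks, had 4873 and 5366 in KO and 4701 and 4326 in WT. The KO libraries lay above the WT libraries, with 0.05 between the libraries numbered 1 and 0.31 between those numbered 2 (0.18 ± 0.07, limma adjusted p = 0.131). Core subunits Fance (0.19) and Fancg (0.18) had like values without passing the threshold. Fancc, another core subunit, had 878 ± 46.6 in KO and 913 ± 149 in WT, with overlapping libraries and the widest interval of the list, -0.38 to 0.29. Fancm, the translocase that anchors the core to DNA, was at -0.01, and the locus of Fancl, the ubiquitin ligase of the core, at -0.05.

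Among damage sensors and checkpoint genes Atm and Mdc1 fell. Atm (chromosome 9, 53245226 to 53344776, mm9) had 5077 and 5342 in KO and 6781 and 6734 in WT. Every KO library was below every WT library, by a gap several times the difference within either genotype. Atm fell by 0.38 ± 0.05 on the log2 scale (limma adjusted p = 0.00792), to 77.1% of the WT mean, with -0.42 between the libraries numbered 1 and -0.33 between those numbered 2. Mdc1 (chromosome 17, 35978442 to 35996615, mm9), a scaffold that binds phosphorylated H2AX and holds ATM near breaks, had 8684 and 8427 in KO and 9708 and 9846 in WT. It fell by 0.19 ± 0.05 (limma adjusted p = 0.0373), to 87.5% of the WT mean, with -0.16 between the libraries numbered 1 and -0.22 between those numbered 2.

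The other 7 genes of this role were not called by limma on the deposited values. The locus of Trp53bp1, whose protein limits resection, had 8427 and 8215 in KO and 9270.5 and 9241 in WT, at -0.15 ± 0.05 (limma adjusted p = 0.0656). It was called by edgeR (adjusted p = 0.0424) and by limma with upper-quartile (adjusted p = 0.0292) and total-count scaling (adjusted p = 0.0241). DESeq2 did not call it (adjusted p = 0.0553). The MRE11 complex, which first binds ends and activates ATM, gave 3 small values: Rad50 had 7292 and 7335 in KO and 7012 and 6801 in WT (0.08), Mre11a was at -0.07 and Nbn at 0.02. The shared locus of the kinase Atr was at -0.04 with an interval of -0.16 to 0.08. A fall of the locus as large as that of Atm lay outside the interval. Since its reads cannot be divided, the change of Atr alone is not known. Chek1 was at -0.09 (interval -0.23 to 0.06) and Chek2 at 0.04 (interval -0.11 to 0.20).

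Atm and Npat, a regulator of histone genes, are neighbours whose loci lie 375 bases apart in the deposited coordinates, and their RefSeq starts are separated by 375 bases in GRCm38.p6 and point away from each other. Of the 250 bases printed for Atm, 125 also belong to the window before Npat. Npat had 4584 and 4763 in KO and 4653 and 4839 in WT, at -0.02 ± 0.06 (limma adjusted p = 0.803). The log2 ratio of Atm to Npat was 0.15 and 0.17 in KO and 0.54 and 0.48 in WT. The ratio was thus lower in both KO libraries, and with 2 libraries each an exact permutation test cannot go below a two-sided p of 0.333. The loci of Prkdc and Mcm4, a subunit of the replicative helicase, 465 bases apart, were level together at 0.002 and 0.01.

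The RecQ helicases, which unwind recombination intermediates, were not called by limma on the deposited values. Wrn had 9447.5 and 8943 in KO and 8258 and 8135 in WT (0.17 ± 0.05, limma adjusted p = 0.0691). DESeq2 called Wrn (adjusted p = 0.0439) and edgeR did not (adjusted p = 0.0519). Blm had 6658 and 6431 in KO and 6205 and 5939.6 in WT (0.11 ± 0.05, limma adjusted p = 0.197). For both genes the KO libraries lay above the WT libraries.

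No end-joining gene of the 5 passed the threshold by limma on the deposited values, with 2 at an unadjusted p under 0.05. The count was 0 by edgeR and 1, Xrcc6, by DESeq2. Lig4, the ligase that seals the ends, had 1386 and 1213 in KO and 1550.3 and 1656 in WT, without overlap. Its fold change was -0.31 ± 0.10 (limma adjusted p = 0.0741). Lig4 was called by limma with upper-quartile (adjusted p = 0.045) and total-count scaling (adjusted p = 0.0406), which lower the median of all loci. Neither edgeR (adjusted p = 0.0771) nor DESeq2 (adjusted p = 0.0607) called Lig4. The locus of Xrcc6, the smaller Ku subunit, had 13602 and 12414 in KO and 16623 and 14365 in WT. It was at -0.25 ± 0.08 (limma adjusted p = 0.083), and was called by limma with total-count scaling (adjusted p = 0.0444). Xrcc5, the larger Ku subunit, had 2068 ± 53.8 in KO and 1968 ± 122 in WT, at 0.07. Prkdc, the catalytic kinase, had 5014 and 5114 in KO and 4905 and 5216 in WT, at 0.002 with an interval of -0.14 to 0.14. Xrcc4, the scaffold of the ligase, had the fewest reads of the list, with 647 and 546 in KO and 598 and 581 in WT (0.01, interval -0.30 to 0.33).

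Both single-strand break repair genes fell. Parp1 (chromosome 1, 182499105 to 182531385, mm9), which senses nicks and marks them with poly(ADP-ribose), had 20619 and 18742 in KO and 25416 and 25738 in WT. It fell by 0.38 ± 0.06 (limma adjusted p = 0.00942), to 77.0% of the WT mean, with -0.30 between the libraries numbered 1 and -0.46 between those numbered 2. Xrcc1 (chromosome 7, 25331313 to 25358457, mm9), the scaffold recruited to those marks, had 4419 and 3962 in KO and 5048 and 5257 in WT. It fell by 0.30 ± 0.07 (limma adjusted p = 0.0332), to 81.3% of the WT mean, with -0.19 between the libraries numbered 1 and -0.41 between those numbered 2. For both genes the libraries of the genotypes were apart and KO replicate 2 was the lowest. Msh6, a subunit of the mismatch sensor, had 14521 and 14802 in KO and 14569 and 15688 in WT within its shared locus, at -0.04.

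**Figure D2:**
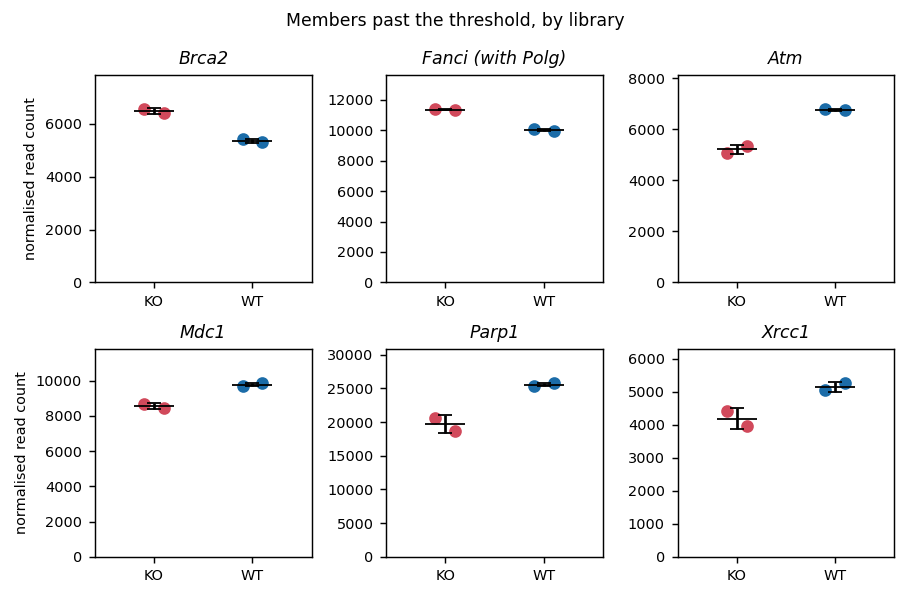
Normalised read counts of the 6 loci past the threshold in each library, KO left and WT right, with bars for the mean and SD (n = 2). In each panel the 2 KO libraries lie on 1 side of the 2 WT libraries, and Parp1 in KO spans 18742 to 20619.

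Levels of different genes were compared per length, as normalised reads per kb of GENCODE exons, for the 27 loci that hold 1 named gene. Parp1 was highest, with 3895 and 3541 per kb in KO and 4802 and 4863 in WT. The next were Rad50 (1361 in KO and 1285 in WT, means per kb), Nbn (1228 in KO and 1213 in WT), Wrn (1210.4 in KO and 1079 in WT) and Mdc1 (1153 in KO and 1317.5 in WT). Atm stood at 504 per kb in KO and 654 in WT, and Brca2 at 474 in KO and 392 in WT, so Atm exceeded Brca2 in both genotypes, by a smaller margin in KO. At the low end were Fancc (105 in KO and 109 in WT) and Xrcc4 (142 in KO and 139.9 in WT), and the libraries of these genes put Fancc between 96.6 and 122 and Xrcc4 between 129.7 and 153 per kb. The median was 645 per kb in KO and 628 in WT.

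In 23 of the 35 genes, or 65.7%, the libraries of the genotypes did not overlap, 10 higher and 13 lower in KO. Over all tested loci the share was 66.1%, with 32.5% higher and 33.6% lower. The size of change was smaller than over all loci: 0 of 35 genes had a fitted change of at least 1.5-fold, against 19.2% of tested loci, and the median absolute log2 fold change was 0.13, against 0.21. The 35 loci also held more reads, with a median normalised read count of 4671 against 1537 over all tested loci, and 29 of them lay above 1537. The part of read depth in the narrower range was not tested. Among the 29 genes not called, the 95% intervals reached from -0.54 (Lig4) to 0.43 (Xrcc3), inside 1.5-fold in all 29.

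**Figure D3:**
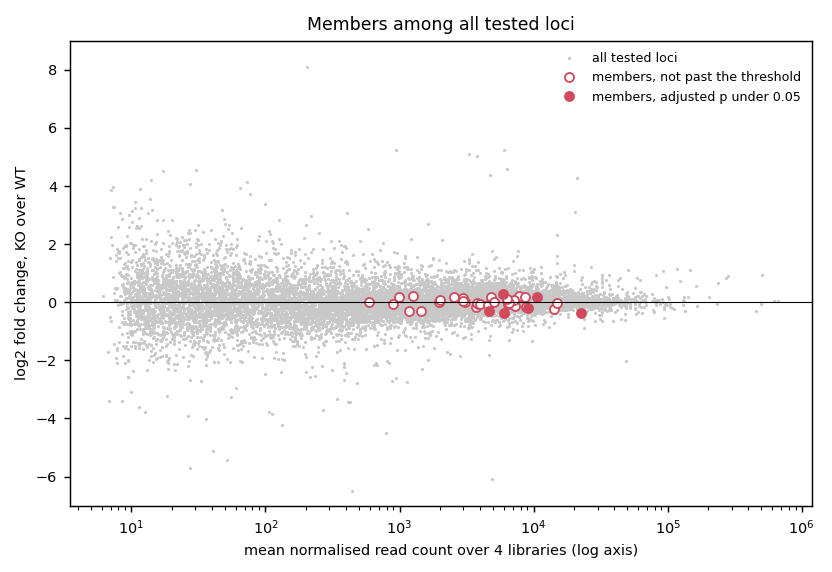
Log2 fold change of KO over WT against the mean normalised read count over the 4 libraries (log axis) for 13764 tested loci in grey and the 35 repair genes in red, filled where past the threshold. The repair genes lie between -0.38 and 0.27, mostly to the right of the middle of the grey cloud.

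Other genes of the same pathways were read from 6 lists of 96 genes. Of 92 tested loci 7 rose and 5 fell, 13.0% against the 20.9% of all tested loci, with a median log2 fold change of -0.015. The locus of Rad9 had the highest limma adjusted p among those that changed, 0.0494. Without WT replicate 1 the count was 1 and without WT replicate 2 it was 2. Of 7 end-joining partners 2 rose and 1 fell. The 2 gap-filling polymerases of end joining went in opposite directions: Polm rose by 0.66 ± 0.13 (limma adjusted p = 0.0206), with 1067 and 1054 in KO and 602 and 749 in WT, and Poll fell by 0.41 ± 0.09 (limma adjusted p = 0.0226), with 1150.5 and 1173 in KO and 1485.5 and 1614 in WT. The libraries of the genotypes did not overlap for either gene.

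In the base excision and mismatch list 1 of 22 rose and 2 fell. The locus of Ogg1, which removes oxidised guanine, and Camk1 rose by 0.41 ± 0.09, Smug1, a uracil glycosylase, fell by 0.60 ± 0.15, and the locus of the abasic endonuclease gene Apex1 and Tmem55b fell by 0.22 ± 0.05. Among 19 checkpoint partners Cdc25a, a phosphatase that CHEK1 targets, rose by 0.31 ± 0.06 and Rad17, a clamp loader, by 0.24 ± 0.05, while the locus of Rad9 and Ppp1ca fell by 0.16 ± 0.04. Dclre1a, a nuclease of crosslink repair, rose by 0.41 ± 0.08 as 1 of 15 Fanconi partners. The locus of Swi5, a recombination mediator, fell by 0.23 ± 0.06 as 1 of 17 recombination and resection genes, and the locus of Ercc5, the endonuclease also called XPG, rose by 0.29 ± 0.08 as 1 of 12 nucleotide excision genes.

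Many repair genes are transcribed with the cell cycle, so cycle genes are given beside them. Of 25 S phase genes 0 passed the threshold by limma, against 20.9% of all tested loci, with 5 at an unadjusted p under 0.05 and a median of -0.002. Among these 25, edgeR called 1 (20.6% of all loci) and DESeq2 2 (25.0% of all loci). Of 25 genes of G2 and M phase 0 passed as well (4 at an unadjusted p under 0.05, 1 called by edgeR and 1 by DESeq2), with a median of -0.05. Without KO replicate 1, 4 S phase genes and 2 of G2 and M phase were called, and without KO replicate 2 the counts were 2 and 3. The summed S phase level was 417364.5 and 436463.5 in KO and 427890.3 and 430609.8 in WT, so the WT libraries lay between the KO libraries. For the genes of G2 and M phase the sum was 434012 and 402282 in KO and 425205.5 and 415655 in WT.

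Several cell type markers had larger changes than the repair genes. Their counts stand beside 20.9% of all tested loci called by limma, 11.9% higher and 8.97% lower. Kit was present in every library, with 18483 and 18889 in KO and 17739 and 16149 in WT, and of 10 progenitor genes 2 fell, the locus of Cd34 by 0.83 and Flt3 by 0.61 on the log2 scale. Of 13 tested neutrophil markers 12 rose, with summed levels of 2218501.5 and 2077190.4 in KO and 1097587 and 1222577 in WT. They include granule genes such as Ngp, Ltf and Camp, and the maturation stage of the cells was not tested. Of 11 erythroid markers 6 rose, with 162357 and 195705 in KO and 106300.4 and 119325.5 in WT. Of 10 B lineage loci 5 fell, with 99959 and 69131 in KO and 135987 and 128768 in WT, and 3 of 10 T and NK genes fell, with 14089.8 and 12769 in KO and 16404 and 15729.5 in WT. Of 9 monocyte genes 2 rose and 3 fell (44947 and 43414 in KO, 41245 and 40032 in WT). Among 8 stroma and endothelium genes 1 fell, Pecam1 (10338 and 7499 in KO, 8763 and 8660.5 in WT for the sum). Pecam1 (means of 3809 in KO and 4960 in WT) and Vcam1 (4268 in KO and 3077 in WT) held most of that sum. Il7r (6624 in KO and 7518 in WT) and Nkg7 (5743 in KO and 6656 in WT) held most of the T and NK sum. Cd8a averaged 30.5 in KO and 33.9 in WT and Cdh5 22.8 in KO and 30.8 in WT. Other markers near 0 were Cd3e (9.10 and 23.9 in KO, 32.4 and 26.8 in WT) and Lepr (28.0 and 8.25 in KO, 15.5 and 15.9 in WT), and none of the tested markers was at 0 in all libraries. The part of these cells in the changes of the 6 repair loci was not tested, and in bulk RNA fewer cells of a type and less RNA per cell cannot be told apart.

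**Figure D4:**
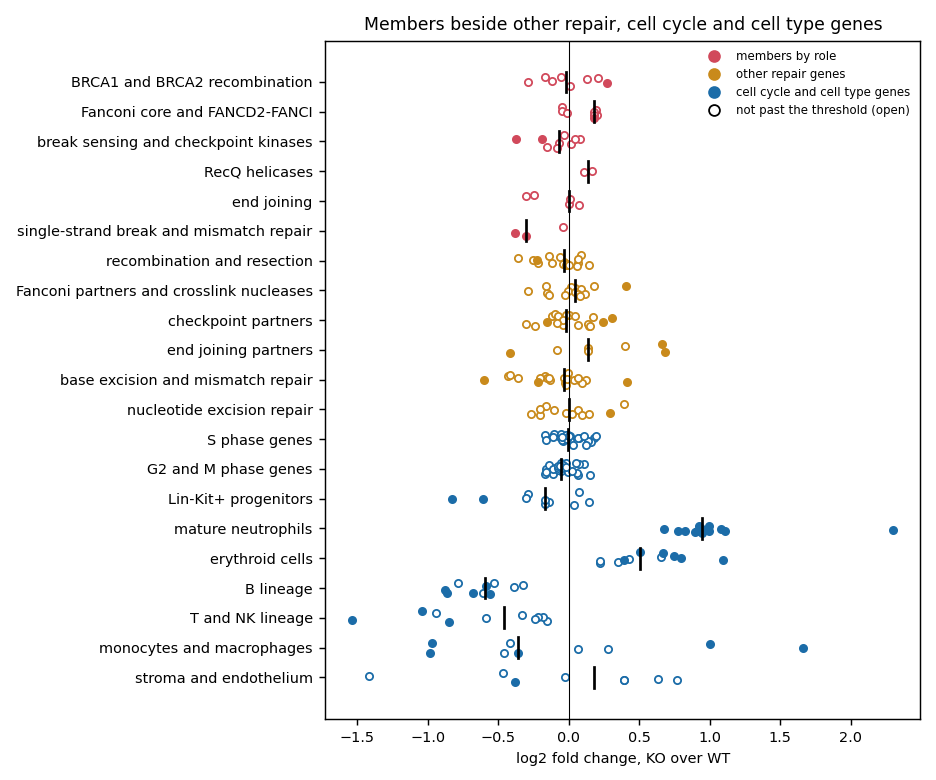
Log2 fold change of KO over WT of each gene, in red for the 35 genes by role, in orange for other repair genes and in blue for cell cycle and cell type genes, filled where past the threshold, with a black bar at each median. The 35 genes lie between -0.38 and 0.27 and the cell cycle genes between -0.17 and 0.20. The neutrophil markers, labelled mature neutrophils in the plot, have a median of 0.95.

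The calls depended on scaling and on the WT libraries, and each count is given with the share of all loci called by the same processing. With total-count scaling, which lowers the median of all tested loci to -0.07, 1 gene was higher and 9 were lower (24.6% of loci), and with upper-quartile scaling 1 was higher and 8 were lower (24.0% of loci), against 2 and 4 with the deposited values. Over all loci 39.2% of calls were higher in KO with total-count scaling and 42.6% with upper-quartile scaling, against 57.0% with the deposited values. Atm, Mdc1, Parp1, Xrcc1 and Brca2 were called under these 3 scalings, and the locus of Fanci was lost under both alternatives.

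Without WT replicate 1 limma called 0 of the 35 (9 at an unadjusted p under 0.05, 6.31% of loci called), and without WT replicate 2 also 0 (6 at an unadjusted p under 0.05, 7.85% of loci). In both cases the lone WT library was assumed to vary like the KO libraries, which alone gave the spread. The log2 fold changes without WT replicate 1 and without WT replicate 2 were -0.37 and -0.38 for Atm, -0.39 and -0.37 for Parp1, -0.33 and -0.27 for Xrcc1, -0.20 and -0.18 for Mdc1, 0.29 and 0.26 for Brca2 and 0.19 and 0.17 for the locus of Fanci. A fit without the trend called 0 (8 at an unadjusted p under 0.05, 4.80% of loci). Without KO replicate 1 the count was 9 (23.5% of loci), and Fanci was not among them, whereas without KO replicate 2 it was 7 (23.1% of loci), without Mdc1. Other tests called 8 of the 35 (edgeR, 20.6% of loci), 9 (DESeq2, 25.0%) and 6 (limma-voom, 19.0%), and all 3 called the 6 loci named above. The same 6 were called alone with TMM scaling (20.9% of loci), a pseudocount of 10 (21.2%) or 0.5 (20.7%) and no minimum value (14.0%). A minimum value of 50 added Fanca (24.2% of loci).

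**Figure D5:**
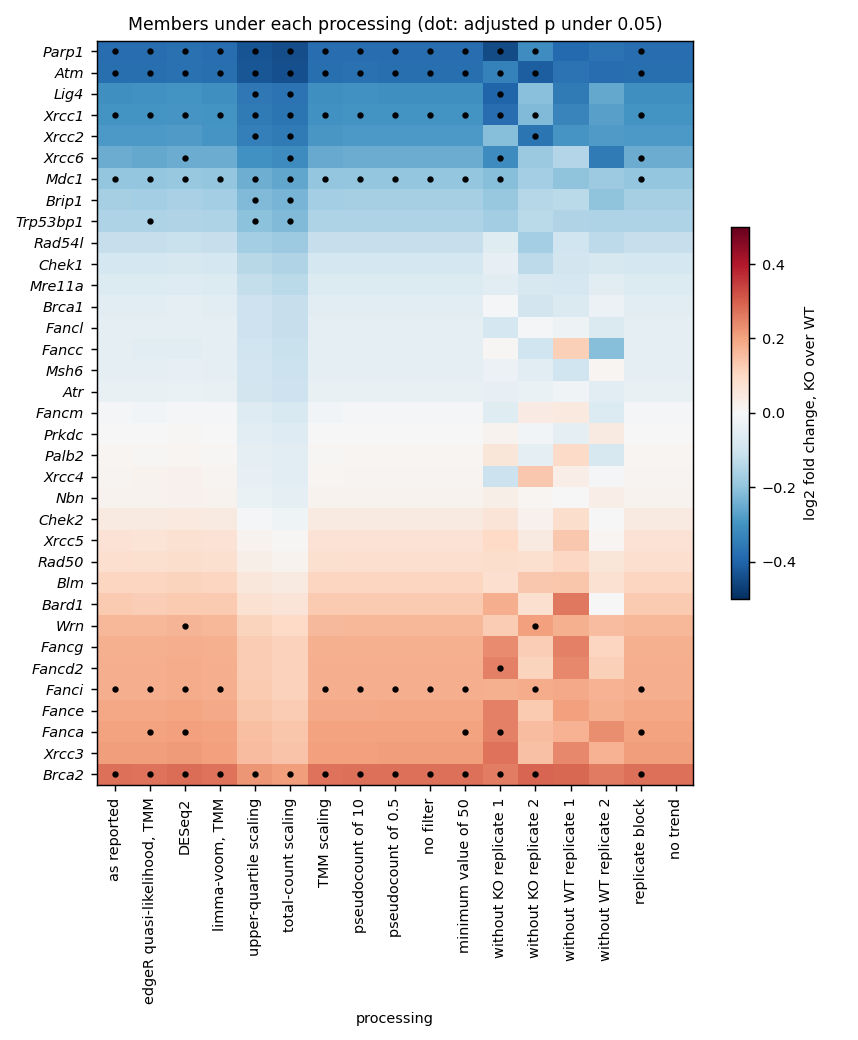
Log2 fold change of KO over WT of each of the 35 genes (rows of the plot, blue lower and red higher in KO) under each processing (columns), with dots at an adjusted p under 0.05. Parp1, Atm, Xrcc1 and Brca2 carry dots in every column except those without a WT library and without the trend.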

How the data were processed

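RNA was extracted from 2000000 Lin-Kit+ bone-marrow cells per library, per the labels' protocols, with 2 KO and 2 WT libraries. Reads were aligned with STAR 2.3.1t to mm9, per the submitters' processing notes, while the sources used here do not name the counter, annotation, use of strand or scaling tool. The deposited signal holds whole reads per locus, scaled by the authors with a single factor in each library, and 100% of values came out as whole reads within 0.001 read. One read was worth 0.758 and 0.825 in KO and 1.30 and 1.22 in WT, so WT values rest on fewer reads, and 3 reads, the limit that a count of 0 allows, equal 2.27 and 2.48 in KO and 3.89 and 3.66 in WT, for counting error only.

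The table has 22849 entries, of which 4893 join neighbouring loci and were left out. Loci at 10 or more in at least 2 libraries were tested in limma 3.58.1 (R 4.3.3) on log2(value + 1), by genotype alone with a trend of variance on level, and Benjamini-Hochberg adjustment over 13764 loci at 0.05. Fold changes on this scale understate those of low loci. Alternatives used edgeR 4.0.16 and DESeq2 1.42.0 on the recovered reads, other scalings, pseudocounts and minimum values, and left out each library. The scripts were tested on simulated data. Exon lengths are GENCODE M21 (GRCm38) and promoters RefSeq.

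The members and lists were chosen with earlier results of these data known. All 35 members are named; values per library are given for those called and, in each role, for the one with the most reads and up to 2 others of smallest p; those of Bard1, Xrcc3, Prkdc and Xrcc4 were added after their values were seen. From the pathway lists the called genes are named, apart from 1 that is not reported here, and the nearest neighbours within 1 kb were read.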

Additional observations from a re-analysis of the deposited data

How the results depend on the processing

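Over 16 alternatives the 35 log2 fold changes gave 560 values, of which 491 kept their direction and their side of the threshold, 23 crossed it upward, 22 lost it and 24 changed sign. Brca2, Atm, Parp1 and Xrcc1 kept the call in 13 alternatives, Mdc1 in 12 and the locus of Fanci in 10. The adjusted p of Atm ran from 1.71e-06 to 0.066 and that of Parp1 from 9.98e-07 to 0.0809. Of the 35 genes, 6 were called (2 higher, 4 lower), and 8 by edgeR, 9 by DESeq2 (4 higher), 9 with upper-quartile scaling (1 higher, 8 lower) and 10 with total-count scaling (1 higher, 9 lower). Leaving out 1 library gave between 0 and 9 calls, with 0 to 3 higher and 0 to 6 lower, and a median fold change between -0.03 and 0.001; the 0 came without WT replicate 1 (lowest adjusted p 0.055) and without WT replicate 2 (0.053). A fit without the trend called 0 (8 at an unadjusted p under 0.05, lowest adjusted p 0.066). The median fold change was -0.064 with upper-quartile and -0.076 with total-count scaling. Without the loci that hold another gene, an alternative chosen after seeing the data, 1 gene was higher and the median was 0.008.

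Over all loci, lower calls numbered 1235, with 1901 under upper-quartile and 2060 under total-count scaling; the fit without the trend called 661 loci (371 higher, 290 lower). Leaving out 1 library gave 869 to 3233 calls, 603 to 1714 higher and 266 to 1542 lower. Pathway calls, 12 in all, were 1 without the trend and between 1 and 18 with 1 library left out. S phase calls were 1 by edgeR, 2 by DESeq2, 2 with upper-quartile and 3 with total-count scaling, 1 with the replicate block and 0 to 4 with 1 library left out. Calls among genes of G2 and M phase were 1 by edgeR, 1 by DESeq2, 1 with upper-quartile and 3 with total-count scaling and 0 to 3 with 1 library left out.

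Signs changed in genes that were not called. Prkdc was at -0.00021 in edgeR, -0.00055 in limma-voom, -0.051 with upper-quartile and -0.063 with total-count scaling. On those scalings Palb2 was at -0.045 and -0.057, Nbn at -0.035 and -0.047, Chek2 at -0.009 and -0.021, and Xrcc4 at -0.041 and -0.053. With 1 library left out, the values ran from -0.002 to 0.26 for Bard1, -0.08 to 0.10 for Palb2, -0.21 to 0.12 for Fancc, -0.068 to 0.048 for Fancm, -0.043 to 0.046 for Prkdc, -0.11 to 0.13 for Xrcc4 and -0.10 to 0.009 for Msh6. Upper-quartile and total-count scaling move all loci alike, and the median of all loci was -0.059 and -0.071 on them, against -0.006. For the other sign changes the cause was not tested.

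The replicate number is not tied to an animal in the labels, and with 2 pairs the deviations of same-numbered libraries correlated at 0.246. With the replicate block 8 genes were called, against 25.0% of all loci, with Fanca (limma adjusted p = 0.0342) and Xrcc6 (limma adjusted p = 0.0165) added to the 6. Xrcc4, the gene with the fewest reads, rests on 462 reads in 1 WT library.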

Other observations

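Neighbouring loci within 1 kb were read for 16 of the repair genes, which gave 20 tested neighbours, and 1 of them changed. Zscan29, a zinc finger gene 56 bases from the locus of Trp53bp1, had 5261 and 5008 in KO and 3893 and 3979.6 in WT, a rise of 0.38 ± 0.06 (limma adjusted p = 0.00877), beside -0.15 for the Trp53bp1 locus. The log2 ratio of the Trp53bp1 locus to Zscan29 was 0.68 and 0.71 in KO and 1.25 and 1.22 in WT. Brca1 and Nbr1, an autophagy receptor gene 199 bases away, were at -0.05 and 0.05, neither called. Klc1, whose locus overlaps that of Xrcc3, had 2243 and 2165 in KO and 2524 and 2529.5 in WT (-0.20 ± 0.06, limma adjusted p = 0.0784), beside 0.21 for Xrcc3.

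The 35 loci together held 195226 and 193536 normalised reads in KO and 204936 and 201674 in WT, so both KO sums were lower. That difference is the net of falls and rises. The largest falls were in Parp1 (means of 19680 in KO and 25577 in WT) and the locus of Xrcc6 and Desi1 (13008 in KO and 15494 in WT). The Xrcc6 locus was not called by limma on the deposited values. The largest rise was in the locus of Fanci and Polg (11345 in KO and 10002 in WT). The 35 log2 fold changes had a median of -0.01, with 17 above 0 and 18 below. Over the 6 roles the sums were 36568 and 37462 in KO and 34277 and 33160.3 in WT for the Fanconi genes, 50204 and 50482 in KO and 54284 and 53984 in WT for sensing and checkpoint genes, and 39558 and 37506 in KO and 45033 and 46682 in WT for single-strand break and mismatch repair. For the RecQ helicases they were 16105 and 15375 in KO and 14463 and 14074 in WT, and for end joining 22679 and 21393 in KO and 25730.4 and 23699.7 in WT. The libraries of the genotypes overlapped for the BRCA recombination genes, with 30111.5 and 31319 in KO and 31149 and 30073.5 in WT, and not for the other 5 roles. Among single tested loci 66.1% did not overlap, and no such share was computed for sums of loci. In such sums the loci with the most reads weigh most. The end-joining genes had a median log2 fold change of 0.002, with 3 of 5 values above 0, although their sum was lower in KO. These sums include the reads of genes that share a locus, such as Polg, Zfp276 and Vrk2 among the Fanconi loci and Desi1 in end joining. No sum was tested.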
